A study of Saccharomyces cerevisiae with 4 samples.

Results

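The transcriptional programme of nitrogen starvation in wild-type budding yeast was described from a table of RPKM values (reads per kilobase of gene, scaled to the mapped reads of the library) for 6678 open reading frames (ORFs). An ORF was included when it reached 10 RPKM in either wild-type library, which 5956 of the 6678 did. Each ORF was given as its RPKM in both libraries and as log2((RPKM + 1)/(RPKM + 1)), starved over growing. Nearest the limit on the inside were YBL100W-C, INO1 and YOR300W, with 10.01, 10.02 and 10.05 RPKM in starved cells. Just outside were YBR184W and BUD4, with 9.99 and 9.97 RPKM in growing cells, and YLL066C, with 9.97 RPKM in starved cells.

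The study sequenced RNA of wild-type cells and of cells lacking PHO23, a subunit of the Rpd3L histone deacetylase, with 1 library for each genotype and condition. The starved wild type was strain SEY6210 after 2 h in SD-N, a synthetic glucose medium without a nitrogen source. The growing wild type was the same strain at mid-log phase in YPD, a rich medium of yeast extract, peptone and glucose. Both libraries share the same background, a haploid of mating type MATα that carries lys2-801, ura3-52, suc2-∆9, trp1-∆901, his3-∆200, GAL and a leu2 allele with the mutations 3 and 112. The deletion, strain JMY047, is SEY6210 with pho23∆::HIS5, and had the same 2 conditions. Since each condition is a single library, no difference here has a replicate check, no p-value is given, and a difference is called by its size alone, at 2-fold or more. The shift changed every component that distinguishes SD-N from YPD, so the lack of nitrogen and the lack of the other components of rich medium cannot be told apart. RPKM values are shares of a library, so less RNA per cell cannot be told apart from a change in the other transcripts.

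Budding yeast uses ammonium and glutamine first and keeps the genes for poorer nitrogen sources silent, a control known as nitrogen catabolite repression. The GATA activators Gln3 and Gat1 are held in the cytoplasm in rich medium and enter the nucleus when the kinase complex TORC1 is inactive, while Dal80 and Gzf3 repress through the same promoter elements. Loss of TORC1 activity also stops ribosome production, induces autophagy, in which cytoplasm is carried to the vacuole and degraded, and lets the stress activators Msn2 and Msn4 act.

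Library sizes are known only approximately. The RPKM summed to 883544 in starved cells and 1101484 in growing cells, which does not measure library size. At 0 were listed 16 ORFs in starved cells and 22 ORFs in growing cells. The smallest recurring value corresponds to about 1.96e+07 reads for the starved library and 2.30e+07 reads for the growing library if it stands for 1 read. Only 53.6% of low values in the starved and 45.1% in the growing library were whole multiples of it, and no read counts were used. PHO23 had 23.4 RPKM in starved and 12.3 RPKM in growing wild type, and 0.0546 RPKM in starved and 0.13 RPKM in growing deletion cells, as labelled. The mating type genes were as labelled too: MATALPHA1 had 267 RPKM in starved and 104 RPKM in growing wild type, and HMRA1, which encodes a1, was listed at 0 in both.

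More ORFs were higher than lower in starved cells. Of the 5956 ORFs, 1950 were at least 2-fold higher in starved than in growing cells (32.7%) and 795 were at least 2-fold lower (13.3%), leaving 3211 within 2-fold. At 8-fold, 253 ORFs were higher (4.25%) and 43 lower (0.722%). At 32-fold, 49 were higher and 1, DBP2, was lower. The median ORF had a log2 fold of 0.53 with quartiles of -0.27 and 1.27, and that shift depends on the scaling. Scaling by the median of ratios, with each ORF's reference taken over all 4 libraries of the series, moved the median of all ORFs by -0.51. It gave 1156 higher and 1246 lower ORFs, so the higher ones made up 48.1% of those called, against 71.0% as deposited. Scaling to equal sums moved the median by 0.31 and gave 2638 higher and 601 lower. Upper-quartile scaling moved the median by -0.28 and gave 1482 higher and 996 lower. List medians below are therefore read against the 0.53 of all ORFs.

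**Figure D1:**
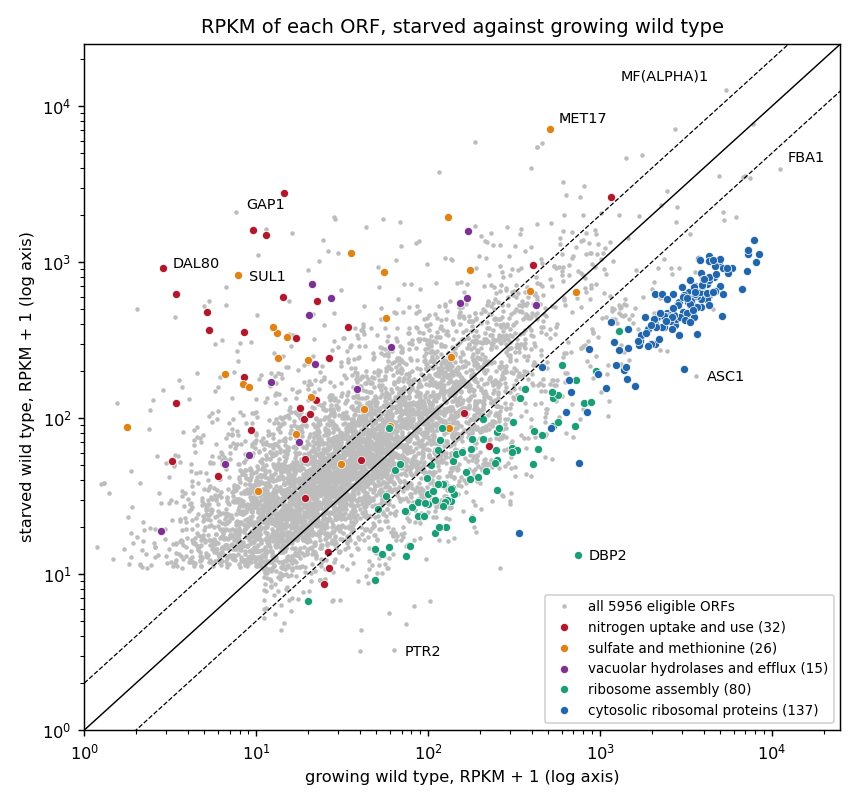
RPKM + 1 of each of the 5956 ORFs in starved wild type (vertical, log axis) against growing wild type (horizontal, log axis), with 5 gene groups coloured. The solid line marks equal values and the dashed lines 2-fold. All 137 cytosolic ribosomal protein ORFs lie below the lower dashed line, while DAL80 and GAP1 stand far above the upper one.

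The most abundant transcripts were of different kinds in starved and growing cells. In growing cells 79 of the 100 ORFs with the highest RPKM encoded cytosolic ribosomal proteins, against 4 of 100 in starved cells, and 18 ORFs were among the 100 highest in both. The highest value in starved cells was that of MF(ALPHA)1, one of the genes for the α pheromone, with 12680 RPKM in starved and 5363 RPKM in growing cells. Among the 15 highest in starved cells were also MET17 (O-acetylhomoserine sulfhydrylase), ARG1 (argininosuccinate synthase), BAT1 (mitochondrial branched-chain aminotransferase), LEU1 (isopropylmalate isomerase) and HSP12, a small stress protein. FBA1, fructose-bisphosphate aldolase, had 3960 RPKM in starved and 11194 RPKM in growing cells, the highest value of the growing library. CCW12, a cell wall mannoprotein, was among the 15 highest of both libraries, with 7622 RPKM in starved and 7761 RPKM in growing cells.

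As a share of summed RPKM, cytosolic ribosomal protein ORFs took 8.40% in starved cells and 39.4% in growing cells. Over 7 lists of amino acid synthesis, sulfur assimilation included, 95 ORFs took 8.99% in starved and 1.93% in growing cells. The 32 ORFs of nitrogen uptake and use took 1.76% in starved and 0.214% in growing cells, and the 23 ORFs of core autophagy took 0.157% in starved and 0.0386% in growing cells. Stress proteins, mating genes and respiratory genes each took a larger share in starved cells, and glycolytic enzymes and translation factors a smaller one.

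**Figure D2:**
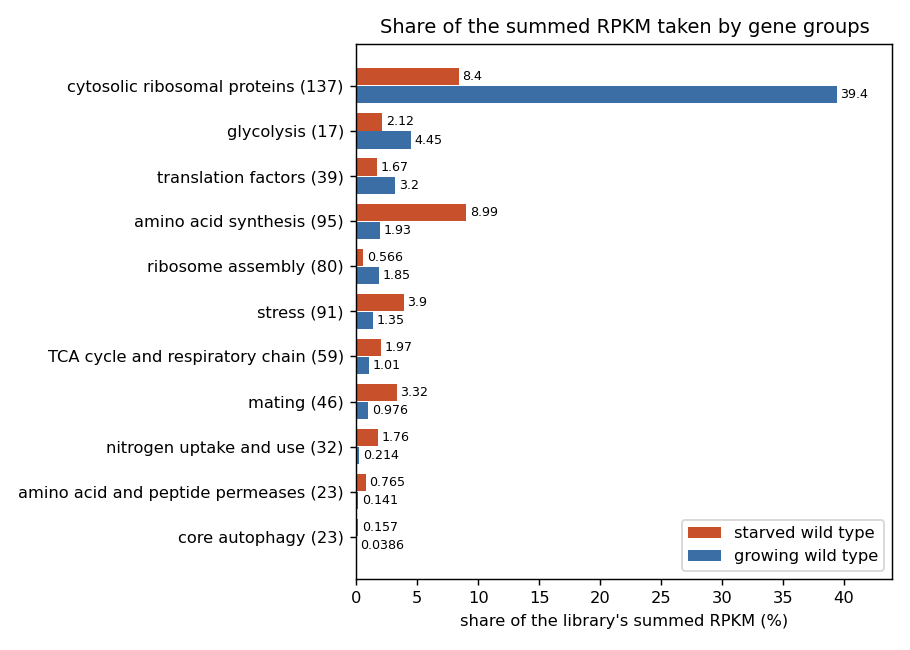
Percent of each library's summed RPKM taken by 11 gene groups, with the number of ORFs in brackets, in starved wild type (upper bar of each pair) and growing wild type (lower bar). Cytosolic ribosomal proteins took 8.40% in starved and 39.4% in growing cells, and amino acid synthesis took 8.99% in starved and 1.93% in growing cells.

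Nitrogen catabolite-repressed genes held the largest folds of the data. DAL80, which encodes the GATA repressor, had 911 RPKM in starved and 1.88 RPKM in growing cells, a log2 fold of 8.31, the highest of all ORFs. GAP1, the general amino acid permease, had 2085 RPKM in starved and 6.61 RPKM in growing cells (8.10), and MEP2, the high-affinity ammonium permease, 1616 RPKM in starved and 8.54 RPKM in growing cells (7.40). The ORF YKR033C, next to DAL80 by systematic name (YKR034W) and not in the RefSeq table, had 500 RPKM in starved and 1.02 RPKM in growing cells, and its reads cannot be told apart from those of its neighbour where strand was not counted. The promoter windows of these 3 genes are shown because they hold the GATA element several times, and all windows here run from 400 to 101 bases before the start codon, read 5′ to 3′ on the gene's strand in assembly R64 (sacCer3). Capitals mark GATAAG in either orientation (CTTATC on the other strand), found 3 times for DAL80 at chrXI:506498-506797 on the plus strand, 3 times for GAP1 at chrXI:514663-514962 on the plus strand, and 4 times for MEP2 at chrXIV:357053-357352 on the plus strand, where 2 of the 4 overlap.
DAL80: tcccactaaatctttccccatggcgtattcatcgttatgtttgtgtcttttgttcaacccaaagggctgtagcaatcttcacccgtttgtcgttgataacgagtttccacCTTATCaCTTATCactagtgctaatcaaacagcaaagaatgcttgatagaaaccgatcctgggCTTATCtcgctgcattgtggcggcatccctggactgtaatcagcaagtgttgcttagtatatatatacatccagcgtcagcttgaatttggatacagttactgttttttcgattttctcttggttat
GAP1: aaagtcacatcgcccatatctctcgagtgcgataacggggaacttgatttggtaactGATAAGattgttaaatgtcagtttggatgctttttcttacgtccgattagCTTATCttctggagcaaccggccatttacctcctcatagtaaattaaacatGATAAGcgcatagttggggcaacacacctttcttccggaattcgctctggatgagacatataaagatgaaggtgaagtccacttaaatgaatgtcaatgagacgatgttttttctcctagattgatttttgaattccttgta
MEP2: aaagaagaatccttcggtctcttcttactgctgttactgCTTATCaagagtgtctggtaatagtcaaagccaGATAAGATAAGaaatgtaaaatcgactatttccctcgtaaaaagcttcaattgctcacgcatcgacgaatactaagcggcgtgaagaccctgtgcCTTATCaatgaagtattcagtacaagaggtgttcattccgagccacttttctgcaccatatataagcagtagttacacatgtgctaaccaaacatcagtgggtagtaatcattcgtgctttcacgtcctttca

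Of all 5494 ORFs with a window that reached 10 RPKM, 13.9% held GATAAG at least once and 1.46% held it 2 or more times. The share was 18.6% among ORFs at least 2-fold higher, 31.2% among those at least 8-fold higher and 9.94% among those at least 2-fold lower. Among the 25 ORFs with the highest folds, 23 had a window and 12 of these (52.2%) held the element. A match describes the sequence and does not show that a factor binds there.

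The allantoin pathway, which releases nitrogen from a purine breakdown product, had a median of 4.92, with 11 of 12 members at least 2-fold higher and DAL81 at 29.7 RPKM in starved and 18.3 RPKM in growing cells. DAL80 is counted in this list. Of the permeases, DAL5, for allantoate, had 2791 RPKM in starved and 13.5 RPKM in growing cells (7.59). DUR3, for urea and polyamines, had 1489 RPKM in starved and 10.5 RPKM in growing cells (7.02). DAL4, for allantoin, had 368 RPKM in starved and 4.31 RPKM in growing cells (6.12). Of the enzymes, DAL3, ureidoglycolate lyase, had 474 RPKM in starved and 4.17 RPKM in growing cells (6.52), DAL2, allantoicase, had 184 RPKM in starved and 7.45 RPKM in growing cells (4.45), and DUR12, the urea amidolyase DUR1,2 that ends the pathway, had 53.8 RPKM in starved and 18.2 RPKM in growing cells (1.52). Of the enzymes in this list, the last of the pathway had the smallest fold.

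These genes lie in part side by side on chromosome IX. DAL1, DAL4, DAL2, DCG1, DAL7 and DAL3, 6 genes, span 9358 bp at chrIX:406260-415617 (R64), on both strands, and all had log2 folds between 4.03 (DAL1) and 6.52 (DAL3). The ORFs on either side did not share this: YVH1, a phosphatase gene on the left, had 35.9 RPKM in starved and 127 RPKM in growing cells (-1.80), and MGA2, a membrane-bound transcription factor gene on the right, had 8.36 RPKM in starved and 24.1 RPKM in growing cells (-1.43). LYS1, the next gene beyond MGA2, had 1028 RPKM in starved and 137 RPKM in growing cells (2.90).

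Genes of ammonium uptake and assimilation were mostly higher, by different amounts. MEP1 had 97.5 RPKM in starved and 18.1 RPKM in growing cells (2.37), while MEP3, the low-affinity permease, had 52.5 RPKM in starved and 39.7 RPKM in growing cells (0.40). GDH1, the main glutamate dehydrogenase that fixes ammonium, had 955 RPKM in starved and 409 RPKM in growing cells (1.22), whereas GDH2, which releases ammonium from glutamate, had 558 RPKM in starved and 21.6 RPKM in growing cells (4.63). GLN1, glutamine synthetase, had 2604 RPKM in starved and 1151 RPKM in growing cells (1.18). ATO3, also in this list, had 106 RPKM in starved and 161 RPKM in growing cells (-0.60). The list's median was 2.46, with 8 of 10 members at least 2-fold higher. Under median-of-ratios scaling 6 were higher and 1 lower.

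Catabolism of single amino acids was split. The proline genes PUT4 (permease), PUT1 (proline oxidase) and PUT2 (pyrroline-5-carboxylate dehydrogenase) were higher, PUT4 with 622 RPKM in starved and 2.43 RPKM in growing cells (7.51), and so were the GABA genes UGA4, UGA1 and UGA2, with log2 folds of 5.18, 3.47 and 2.37. Arginase, CAR1, had 65.7 RPKM in starved and 225 RPKM in growing cells (-1.76), and CAR2, the ornithine transaminase after it, had 12.8 RPKM in starved and 25.3 RPKM in growing cells (-0.93). The aromatic transaminase gene ARO9 had 10.02 RPKM in starved and 25.4 RPKM in growing cells (-1.26), and ARO10, a decarboxylase gene of the Ehrlich pathway, 7.69 RPKM in starved and 23.8 RPKM in growing cells (-1.51). Median and counts of this list were 2.78, with 6 of 10 ORFs at least 2-fold higher and 3 lower.

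Among the GATA factors, GAT1 had 224 RPKM in starved and 19.0 RPKM in growing cells (3.50) and GLN3 had 86.6 RPKM in starved and 16.4 RPKM in growing cells (2.33). The repressor gene GZF3 had 120 RPKM in starved and 26.2 RPKM in growing cells (2.15), and URE2, whose product holds Gln3 in the cytoplasm, 106 RPKM in starved and 91.7 RPKM in growing cells (0.21). Both activator genes and the repressor genes DAL80 and GZF3 were thus higher.

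Amino acid permeases were split. GAP1 and DIP5 (acidic amino acids) were the highest, DIP5 with 1957 RPKM in starved and 27.4 RPKM in growing cells (6.11), and CAN1, for arginine, had 719 RPKM in starved and 70.9 RPKM in growing cells (3.32). At the other end PTR2, the di- and tripeptide permease, had 2.24 RPKM in starved and 62.3 RPKM in growing cells (-4.29). BAP3, for branched-chain amino acids, had 5.25 RPKM in starved and 81.3 RPKM in growing cells (-3.72), and TAT1 had 19.0 RPKM in starved and 185 RPKM in growing cells (-3.21). AGP1, TAT2 and GNP1 were lower by 2.32, 2.28 and 2.18 on the log2 scale. AGP1, GNP1, TAT1, TAT2, BAP3 and PTR2 are known targets of the SPS sensor, which responds to amino acids outside the cell. BAP2 and DIP5 are targets of it too, and BAP2 had 695 RPKM in starved and 374 RPKM in growing cells (0.89). In all, 12 of 23 permease ORFs were at least 2-fold higher, and 6 were at least 2-fold lower, with a median of 1.17.

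Inside the cell, the transporters of the vacuolar membrane were mostly higher. RTC2, of the vacuolar PQ-loop transporters of basic amino acids, had 528 RPKM in starved and 5.68 RPKM in growing cells (6.31), and its duplicate YPQ1 had 301 RPKM in starved and 264 RPKM in growing cells (0.19). AVT4 and AVT6, which export amino acids from the vacuole, had log2 folds of 2.87 and 3.48. The median of 13 members was 1.75, with 11 at least 2-fold higher and none lower.

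Autophagy genes were higher as a class, from low levels. Over the 3 core lists, 18 of 23 ORFs were at least 2-fold higher, none at least 2-fold lower, and the median was 1.68. In the Atg1 kinase complex, which starts autophagosome formation, all 5 members were higher: ATG1 had 51.3 RPKM in starved and 2.62 RPKM in growing cells (3.85), and ATG17, a scaffold, had 26.6 RPKM in starved and 9.23 RPKM in growing cells (1.43). ATG8, whose product is conjugated to the autophagosome membrane, had 322 RPKM in starved and 20.6 RPKM in growing cells (3.90), the highest of the conjugation genes in level and fold. ATG9, the membrane protein that seeds the vesicle, had 26.5 RPKM in starved and 2.81 RPKM in growing cells (2.85). Within 2-fold were ATG12 (0.45), ATG10 (-0.48), VPS30 (0.38), ATG23 (0.83) and ATG27 (-0.13), so the members of the core machinery were not raised alike.

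Receptors of selective autophagy were also higher. ATG39, for the nuclear envelope, had 131 RPKM in starved and 3.05 RPKM in growing cells (5.02). ATG32, for mitochondria, had 103 RPKM in starved and 7.43 RPKM in growing cells (3.63), ATG34, for α-mannosidase, had 56.5 RPKM in starved and 4.53 RPKM in growing cells (3.38), and ATG40, for the endoplasmic reticulum, 51.1 RPKM in starved and 7.52 RPKM in growing cells (2.61). Of 14 ORFs of selective autophagy 12 were at least 2-fold higher, with a median of 2.12.

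The vacuolar hydrolases that receive the cargo were higher together with their inhibitors. PRB1, proteinase B, had 722 RPKM in starved and 20.1 RPKM in growing cells (5.10), and PBI2, its cytosolic inhibitor, 1586 RPKM in starved and 170 RPKM in growing cells (3.22). PEP4, proteinase A, had 547 RPKM in starved and 152 RPKM in growing cells (1.84), and PAI3, its inhibitor, 169 RPKM in starved and 11.2 RPKM in growing cells (3.80). TFS1, an inhibitor of carboxypeptidase Y, had 211 RPKM in starved and 14.3 RPKM in growing cells (3.79), against 584 RPKM in starved and 168 RPKM in growing cells (1.79) for PRC1, carboxypeptidase Y itself. Of 15 ORFs 14 were at least 2-fold higher, with a median of 2.76. The vacuolar proton pump, which acidifies the same compartment, had a median of 0.46 over 15 subunits, 1 of them at least 2-fold higher, and that median turned to -0.07 under median-of-ratios scaling.

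The TORC1 list holds subunits of the kinase complex, regulators upstream of it and some of its effectors. Over its 23 ORFs the median was 0.99, with 11 at least 2-fold higher, against 32.7% of all ORFs, and none lower. Under median-of-ratios scaling 8 were higher and 3 lower, against 19.4% and 20.9% of all ORFs. NPR1, a kinase that TORC1 holds inactive, had 117 RPKM in starved and 14.8 RPKM in growing cells (2.90), and NPR2, NPR3 and IML1, the SEACIT subunits that inhibit TORC1 when nitrogen is short, had log2 folds of 1.95, 1.56 and 2.01. Other upstream members, SEH1 and SEC13, had -0.53 and -0.73. Of the complex itself, LST8 and TCO89 had 1.77 and 1.35, and TOR1 had 9.54 RPKM in starved and 7.27 RPKM in growing cells, below the limit of 10.

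**Figure D3:**
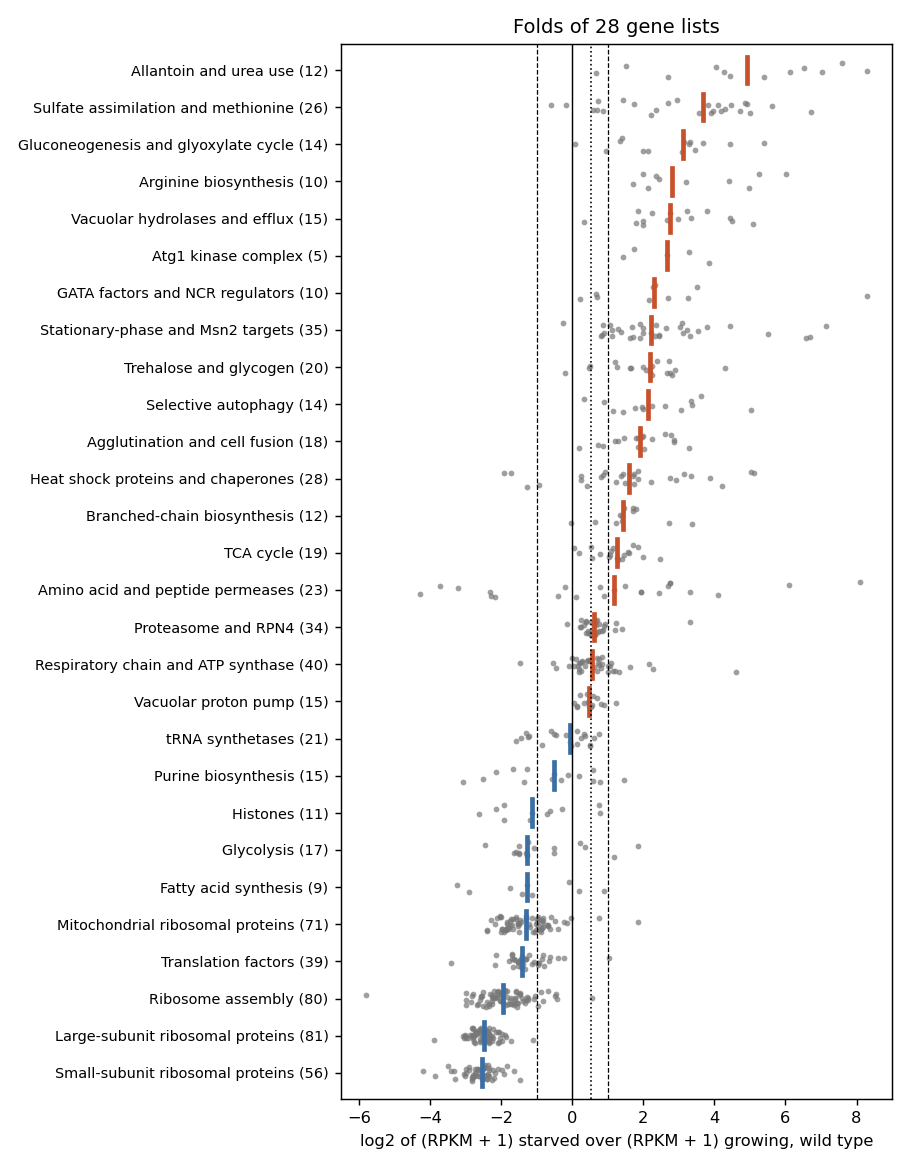
Log2 fold of (RPKM + 1), starved over growing wild type, for each member of 28 gene lists (points), with list medians as coloured bars (orange above 0, blue below 0) and the number of members in brackets. Dashed lines mark 2-fold and the dotted line the 0.53 of all ORFs. Of the lists drawn, the allantoin list lies furthest right at 4.92 and the ribosomal proteins furthest left at -2.54 and -2.49. The permease list spans -4.29 to 8.10. The list of a-specific genes, not drawn, had a median of 5.16.

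Amino acid synthesis was raised across most pathways. In starved cells 60 of 95 ORFs were at least 2-fold higher and 1, SER2, at least 2-fold lower, with a median of 1.70. The list of other amino acid synthesis, which holds SER2, had 3 of 17 ORFs at least 2-fold higher, below the 32.7% of all ORFs. Its median was 0.77, and under median-of-ratios scaling 2 were higher and 3 lower. Branched-chain synthesis had 10 of 12 ORFs at least 2-fold higher, and 5 under median-of-ratios scaling. In arginine synthesis ARG1, argininosuccinate synthase, had 5885 RPKM in starved and 187 RPKM in growing cells (4.97), ARG3, ornithine carbamoyltransferase, had 1875 RPKM in starved and 27.8 RPKM in growing cells (6.03), and all 10 members were at least 2-fold higher. With arginase lower, the genes that make arginine and those that break it down differed in direction. In the leucine branch LEU1 had 4035 RPKM in starved and 393 RPKM in growing cells (3.36), but LEU9, an isoenzyme of LEU4, had 177 RPKM in starved and 182 RPKM in growing cells (-0.04). LYS1, HIS5 and ARO8 led the lysine, histidine and aromatic lists at 2.90, 2.68 and 2.62. GCN4, the activator of these pathways, which is mainly controlled by translation, had 1532 RPKM in starved and 826 RPKM in growing cells (0.89). Its binding core TGACTC, in either orientation, was found in 52.6% of windows of amino acid synthesis genes, 12.4% of those of ORFs at least 2-fold higher, 4.97% of those of lower ORFs and 8.68% of all 5494.

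Sulfate assimilation and methionine synthesis had a median of 3.69, with 20 of 26 ORFs at least 2-fold higher and none lower. SUL1, a sulfate permease, had 822 RPKM in starved and 6.85 RPKM in growing cells (6.71). MET16, PAPS reductase, had 1138 RPKM in starved and 34.7 RPKM in growing cells (4.99), MET10, a sulfite reductase subunit, 380 RPKM in starved and 11.6 RPKM in growing cells (4.92), and MET17, which fixes sulfide into homocysteine, 7165 RPKM in starved and 508 RPKM in growing cells (3.81). MET28, a cofactor of the activator Met4, had 86.6 RPKM in starved and 0.777 RPKM in growing cells (5.62). The genes that turn homocysteine into cysteine did not follow: CYS4 had 638 RPKM in starved and 726 RPKM in growing cells (-0.19), and CYS3 had 85.6 RPKM in starved and 131 RPKM in growing cells (-0.61). The MET3 window, for ATP sulfurylase, at chrX:455839-456138 on the plus strand is shown because it holds both elements known for this pathway. Capitals mark CACGTG, the E-box bound by Cbf1, found 2 times, and TGTGGC, the Met31 element, found 1 time as GCCACA.
MET3: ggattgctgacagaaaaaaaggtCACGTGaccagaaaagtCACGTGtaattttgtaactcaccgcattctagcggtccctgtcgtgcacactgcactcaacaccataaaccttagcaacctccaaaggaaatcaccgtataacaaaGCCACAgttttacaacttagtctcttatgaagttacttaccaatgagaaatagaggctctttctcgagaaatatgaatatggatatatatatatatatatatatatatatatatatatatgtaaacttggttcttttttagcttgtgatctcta
CACGTG was found in 69.2% of the windows of this list and 4.57% of all 5494, and TGTGGC in 57.7% of this list's windows and 9.03% of all.

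Stress and stationary-phase genes made a further block. SPG4, required in stationary phase, had 1617 RPKM in starved and 10.4 RPKM in growing cells (7.15), and DDR2, a multi-stress gene, 688 RPKM in starved and 5.66 RPKM in growing cells (6.69). HSP12 had 3793 RPKM in starved and 114 RPKM in growing cells (5.04), and HSP104, the disaggregase, 193 RPKM in starved and 12.3 RPKM in growing cells (3.86). Of 35 stationary-phase and Msn2 target ORFs 30 were at least 2-fold higher and none lower, with a median of 2.21. Of 28 heat shock proteins and chaperones 18 were at least 2-fold higher and 3 lower, with a median of 1.59, and the highest was HSP78, a mitochondrial disaggregase, with 267 RPKM in starved and 6.69 RPKM in growing cells (5.12). The 3 lower ones were the ribosome-bound chaperones SSB1 and SSB2 and the mitochondrial chaperonin HSP60: SSB1 had 406 RPKM in starved and 1545 RPKM in growing cells (-1.93), SSB2 had 460 RPKM in starved and 1540 RPKM in growing cells (-1.74), and HSP60 had 115 RPKM in starved and 281 RPKM in growing cells (-1.28). MSN4 had 130 RPKM in starved and 27.3 RPKM in growing cells (2.21), against 39.4 RPKM in starved and 21.2 RPKM in growing cells (0.86) for its duplicate MSN2. The HSP12 window, at chrVI:106856-107155 on the plus strand, is shown for its stress response element, AGGGG in either orientation, found 3 times and in capitals.
HSP12: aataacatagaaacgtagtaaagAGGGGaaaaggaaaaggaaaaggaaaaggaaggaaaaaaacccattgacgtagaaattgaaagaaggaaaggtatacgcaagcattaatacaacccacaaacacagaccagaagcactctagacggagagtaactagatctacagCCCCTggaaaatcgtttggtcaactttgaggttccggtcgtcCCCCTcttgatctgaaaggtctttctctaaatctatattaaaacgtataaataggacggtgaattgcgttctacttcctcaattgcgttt
AGGGG was found in 62.9% of the windows of the stationary-phase list, 32.7% of those of ORFs at least 2-fold higher, 17.5% of those of lower ORFs and 23.6% of all.

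Carbon metabolism changed although SD-N contains glucose. Of 17 glycolytic ORFs 11 were at least 2-fold lower and 2 higher, with a median of -1.27, and 6 were lower when scaled to equal sums. ENO2, enolase, had 653 RPKM in starved and 3591 RPKM in growing cells (-2.46), while GLK1, glucokinase, had 241 RPKM in starved and 66.2 RPKM in growing cells (1.85) and PFK1 and PFK2, phosphofructokinase, had log2 folds of 0.22 and 0.36. The list of ethanol fermentation and acetate was split, with 7 of 14 ORFs at least 2-fold higher, 4 lower and a median of 0.41. Under median-of-ratios scaling 5 were higher and 5 lower. ADH1, the fermentative alcohol dehydrogenase, had 503 RPKM in starved and 4554 RPKM in growing cells (-3.18). PDC1, the main pyruvate decarboxylase, had 514 RPKM in starved and 3274 RPKM in growing cells (-2.67), and PDC6, a minor form with few sulfur amino acids, 124 RPKM in starved and 0.54 RPKM in growing cells (6.34). Despite its fold, PDC6 stayed below PDC1 in starved cells.

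Gluconeogenic and glyoxylate genes, which glucose represses, were higher from low levels. MLS1, malate synthase, had 56.0 RPKM in starved and 1.65 RPKM in growing cells (4.43), ICL1, isocitrate lyase, 149 RPKM in starved and 16.7 RPKM in growing cells (3.08), and PCK1, PEP carboxykinase, 44.9 RPKM in starved and 3.18 RPKM in growing cells (3.46). Over 14 ORFs, 12 were at least 2-fold higher and the median was 3.11. The list includes DAL7, another malate synthase, which also acts in the allantoin pathway. Of 19 ORFs of fatty acid oxidation and peroxisomes 17 were at least 2-fold higher (median 1.76), led by POT1, thiolase, with 55.8 RPKM in starved and 2.52 RPKM in growing cells (4.01). Reserve carbohydrate genes had a median of 2.18, with 17 of 20 ORFs at least 2-fold higher, led by GPH1, glycogen phosphorylase, with 102 RPKM in starved and 4.29 RPKM in growing cells (4.29). The genes that make trehalose and glycogen and those that degrade them were both higher: TPS2 had a log2 fold of 2.38 and NTH1, trehalase, of 2.89.

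The TCA cycle had a median of 1.26, with 14 of 19 ORFs at least 2-fold higher, 6 under median-of-ratios scaling and 9 under upper-quartile scaling. It was led by LSC2, a succinyl-CoA ligase subunit, with 472 RPKM in starved and 83.8 RPKM in growing cells (2.48). In the respiratory chain and ATP synthase 10 of 40 ORFs were at least 2-fold higher, below the 32.7% of all ORFs, and 1 lower, with a median of 0.56, and 4 were higher under median-of-ratios scaling. Its highest and lowest were NDE2, an external NADH dehydrogenase, with 44.6 RPKM in starved and 0.88 RPKM in growing cells (4.60), and CYC1, cytochrome c, with 293 RPKM in starved and 820 RPKM in growing cells (-1.48). HXT5, a hexose transporter of non-growing cells, had 93.0 RPKM in starved and 4.51 RPKM in growing cells (4.09), and HXT4 had 73.1 RPKM in starved and 362 RPKM in growing cells (-2.29).

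The lower side of the programme was the machinery of growth. All 137 cytosolic ribosomal protein ORFs were at least 2-fold lower in starved cells, from RPL22B with 212 RPKM in starved and 457 RPKM in growing cells (-1.10) to RPS22B with 17.2 RPKM in starved and 338 RPKM in growing cells (-4.22). The medians were -2.54 for 56 ORFs of the small subunit and -2.49 for 81 of the large subunit. RPL9A had 204 RPKM in starved and 3069 RPKM in growing cells (-3.90) and RPS9A had 50.7 RPKM in starved and 751 RPKM in growing cells (-3.86). ASC1, which binds the small subunit, had 186 RPKM in starved and 3617 RPKM in growing cells (-4.27). Reads of near-identical duplicates can be split between copies by the counting, so single members of such pairs are uncertain. Mitochondrial ribosomal proteins had a median of -1.31, with 46 of 71 ORFs at least 2-fold lower and 1, MRP8, a gene of uncertain function, higher.

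Ribosome assembly factors had a median of -1.95, with 72 of 80 ORFs at least 2-fold lower and none higher. DBP2, a DEAD-box RNA helicase, had 12.3 RPKM in starved and 742 RPKM in growing cells (-5.80), the lowest fold of all ORFs. NSR1, nucleolin, had 49.9 RPKM in starved and 404 RPKM in growing cells (-2.99), and NOP1, fibrillarin, 88.6 RPKM in starved and 712 RPKM in growing cells (-2.99). The windows of DBP2 (chrXIV:413239-413538, plus strand) and NSR1 (chrVII:807757-808056, minus strand) are shown for the 2 elements known from this gene class. Capitals mark the PAC element, GATGAG or CTCATC, found 1 time in each, and the RRPE element, AAANTTTT in either orientation with N any base, found 3 times for DBP2 and 2 times for NSR1, some of them overlapping.
DBP2: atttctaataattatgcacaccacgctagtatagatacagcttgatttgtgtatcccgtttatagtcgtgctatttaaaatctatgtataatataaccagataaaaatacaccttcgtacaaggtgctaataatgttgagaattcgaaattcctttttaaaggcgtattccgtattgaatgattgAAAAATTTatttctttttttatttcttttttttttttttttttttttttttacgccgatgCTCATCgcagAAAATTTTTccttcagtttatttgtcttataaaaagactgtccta
NSR1: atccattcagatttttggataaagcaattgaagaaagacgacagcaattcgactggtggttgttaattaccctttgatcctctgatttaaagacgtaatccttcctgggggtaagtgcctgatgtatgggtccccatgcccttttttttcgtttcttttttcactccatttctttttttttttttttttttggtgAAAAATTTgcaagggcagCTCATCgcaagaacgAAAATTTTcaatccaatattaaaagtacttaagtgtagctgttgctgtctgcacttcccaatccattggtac
PAC was found in 63.8% of the windows of assembly genes, 32.3% of those of ORFs at least 2-fold lower, 15.1% of those of higher ORFs and 18.8% of all. RRPE was found in 87.5% of the windows of assembly genes, 49.9% of those of lower ORFs, 15.5% of those of higher ORFs and 24.0% of all. The Rap1 core, ACCCNNACA, was found in 38.3% of windows of large-subunit genes and 23.2% of small-subunit genes, against 3.97% of all. Without ribosomal protein genes the RRPE share among lower ORFs was 55.2%.

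**Figure D4:**
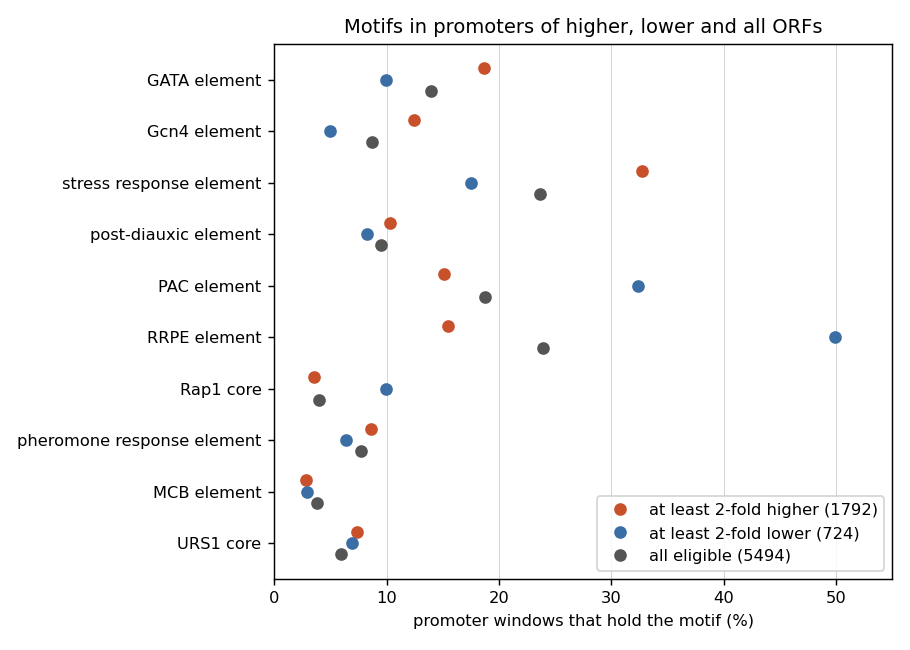
Percent of promoter windows that hold each of 10 motifs at least once, among ORFs at least 2-fold higher in starved wild type (orange), at least 2-fold lower (blue) and all eligible ORFs (grey), with the number of windows in the key. The GATA, Gcn4 and stress response elements were most frequent among higher ORFs, and PAC and RRPE among lower ORFs, at 32.3% and 49.9%.

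Of 14 ORFs of RNA polymerase I and its factors 7 were at least 2-fold lower and none higher, with a median of -0.85. The largest subunit, RPA190, had 14.6 RPKM in starved and 74.9 RPKM in growing cells (-2.28), the subunit RPA14 was within 2-fold at -0.50, and the initiation factor RRN3 had 39.9 RPKM in starved and 34.8 RPKM in growing cells (0.19). Of RNA polymerase III, 9 of 15 ORFs were at least 2-fold lower (5 when scaled to equal sums), but MAF1, its repressor, had 93.6 RPKM in starved and 48.3 RPKM in growing cells (0.94). Translation factors had a median of -1.41, with 28 of 39 ORFs at least 2-fold lower. TEF4, a subunit of elongation factor 1B, had 102 RPKM in starved and 1104 RPKM in growing cells (-3.42), and TIF11, initiation factor 1A, had 295 RPKM in starved and 1321 RPKM in growing cells (-2.16). TEF1 and TEF2, the elongation factor 1A pair, were within 2-fold at -0.96 each, and remained among the abundant transcripts of starved cells, TEF2 with 3582 RPKM. Of 21 tRNA synthetase ORFs 5 were at least 2-fold lower, with a median of -0.08, and 8 were lower under median-of-ratios scaling and 2 when scaled to equal sums.

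Nucleotide synthesis was lower in parts. IMD4, an IMP dehydrogenase, had 42.6 RPKM in starved and 370 RPKM in growing cells (-3.09), and 6 of 15 purine ORFs were at least 2-fold lower against 1 higher. URA1, dihydroorotate dehydrogenase, had 127 RPKM in starved and 1121 RPKM in growing cells (-3.13), and URA7, CTP synthase, 30.9 RPKM in starved and 273 RPKM in growing cells (-3.10). URA10, the minor orotate phosphoribosyltransferase, had 134 RPKM in starved and 10.6 RPKM in growing cells (3.54), while its major form URA5 had 218 RPKM in starved and 405 RPKM in growing cells (-0.89). Fatty acid synthesis had 6 of 9 ORFs at least 2-fold lower, among them the elongases ELO3, with 54.1 RPKM in starved and 526 RPKM in growing cells (-3.26), and ELO2 (-2.90).

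Of 11 histone ORFs 6 were at least 2-fold lower and none higher, with a median of -1.14, with HTB2 at 216 RPKM in starved and 1334 RPKM in growing cells (-2.62). RNR1, ribonucleotide reductase, had 16.2 RPKM in starved and 70.1 RPKM in growing cells (-2.05), and CLB1 and CLN2, cyclin genes, had log2 folds of -1.43 and -0.84. The inhibitors FAR1 and SIC1 had 1.12 and 0.75. Of 21 ORFs of cyclins and inhibitors 2 were at least 2-fold higher and 2 lower, against 32.7% and 13.3% of all ORFs. That list had a median of -0.33, and 9 of its ORFs were lower under median-of-ratios scaling. CLN1, the duplicate of CLN2, had -0.08. Of 22 ORFs of G2 and M phase 1 was at least 2-fold higher and 3 were lower, against 32.7% and 13.3% of all ORFs. The lower share was near that of all ORFs, the median was -0.21, and 8 were lower under median-of-ratios scaling. Of 31 replication ORFs none was at least 2-fold higher and 4 were lower, against 32.7% and 13.3% of all ORFs. The lower share of this list was thus near that of all ORFs. Its median was -0.01, and 8 were lower under median-of-ratios scaling and 1 when scaled to equal sums.

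Large folds were also found outside these lists. NRS1, known as a cell cycle start factor of nitrogen-limited cells, had 317 RPKM in starved and 5.30 RPKM in growing cells (5.66), a gene chosen after its values were seen. NIT1, of the nitrilase family, had 1386 RPKM in starved and 23.6 RPKM in growing cells (5.82), and LEE1, a zinc-finger protein gene, had 558 RPKM in starved and 4.31 RPKM in growing cells (6.72). FMP16, whose product was found in mitochondria, had 443 RPKM in starved and 2.38 RPKM in growing cells (7.04). On the lower side, INA1, a plasma membrane protein gene, had 9.93 RPKM in starved and 260 RPKM in growing cells (-4.58), and its duplicate FAT3 was among the higher ORFs. RKI1, of the pentose phosphate pathway, had 27.3 RPKM in starved and 298 RPKM in growing cells (-3.40). FUR1, which salvages uracil, had 32.0 RPKM in starved and 303 RPKM in growing cells (-3.20). CTR1, the high-affinity copper transporter, had 17.5 RPKM in starved and 189 RPKM in growing cells (-3.36), and YPR123C, next to it by systematic name (YPR124W) and not in the RefSeq table, had 5.72 RPKM in starved and 102 RPKM in growing cells, and its reads cannot be told apart from those of CTR1 where strand was not counted.

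Pairs of duplicate genes differed in how alike their copies were. By the RefSeq annotation's notes, 454 pairs kept from the whole-genome duplication had both copies at 10 RPKM. Of these, 85 were at least 2-fold higher in both copies and 64 lower in both. In 181 only 1 copy was called, 17 had 1 copy higher and the other lower, and 107 had neither copy called. Of all single ORFs 32.7% were higher and 13.3% lower, and pairs of unrelated ORFs were not compared. The 55 ribosomal pairs were alike, with all lower in both copies and a median difference between copies of 0.26 on the log2 scale, whereas in 191 of the 399 other pairs the copies' folds were more than 2-fold apart (47.9%). How reads shared by near-identical copies were counted is not given in the sources used here.

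Among the 17 opposed pairs, ADH5 had 330 RPKM in starved and 113 RPKM in growing cells (1.54), opposite to ADH1. GSP2 had 103 RPKM in starved and 16.4 RPKM in growing cells (2.58), against 329 RPKM in starved and 971 RPKM in growing cells (-1.56) for GSP1, both encoding the nuclear transport GTPase Ran. CYC7, cytochrome c isoform 2, had 242 RPKM in starved and 77.2 RPKM in growing cells (1.64), so that it came near CYC1. Pyruvate kinase PYK2 had 22.3 RPKM in starved and 9.32 RPKM in growing cells (1.17), and CDC19 919 RPKM in starved and 2168 RPKM in growing cells (-1.24). GND2 and GND1, of the pentose phosphate pathway, had log2 folds of 2.14 and -1.76.

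**Figure D5:**
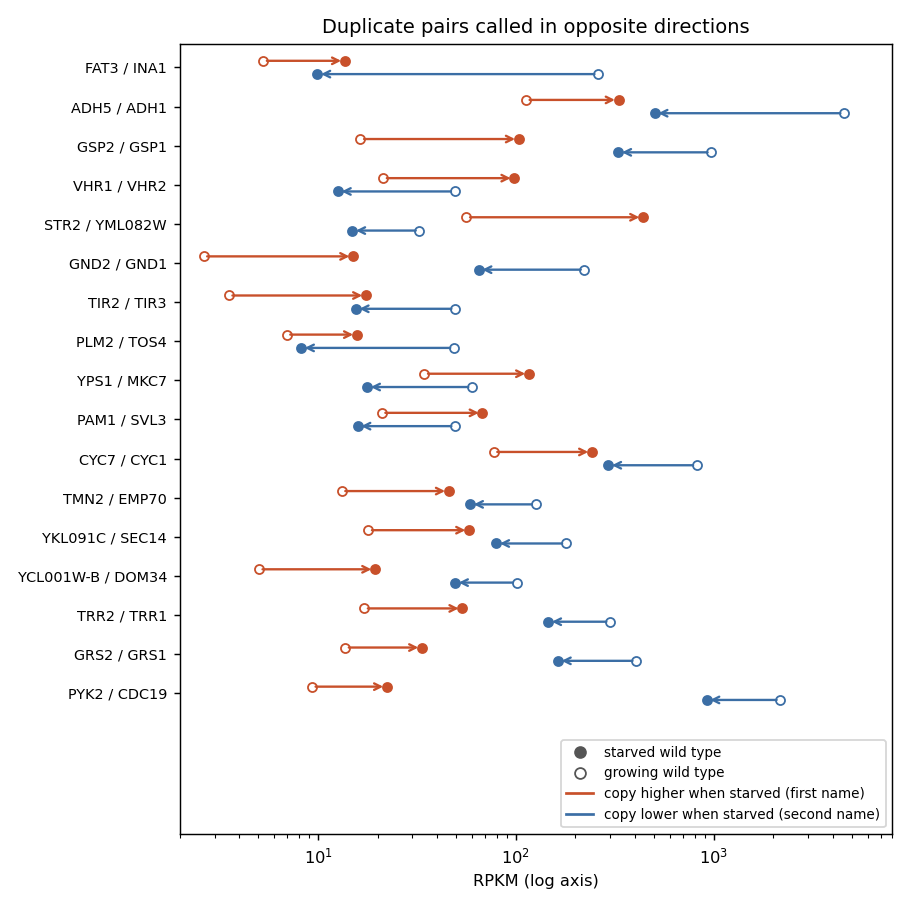
RPKM (log axis) of both copies of the 17 duplicate pairs with 1 copy at least 2-fold higher and the other at least 2-fold lower in starved wild type. Filled points are starved cells, open points growing cells and arrows run towards starved cells, with the copy that was higher named first (orange) and the one that was lower second (blue). ADH5 and ADH1 ended at 330 and 503 RPKM in starved cells.

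The lists of mating genes differed in how firmly they were higher in starved cells of this MATα haploid. Among α-specific genes 5 of 6 were at least 2-fold higher, with a median of 1.28, but 0 of 6 were under median-of-ratios scaling and 3 under upper-quartile scaling. Of 17 ORFs of pheromone signalling 7 were at least 2-fold higher, with a median of 0.92, and 1 was under median-of-ratios scaling. Of all ORFs 32.7% were higher as deposited and 19.4% under that scaling. Among agglutination and fusion genes 15 of 18 were at least 2-fold higher, with a median of 1.90, and 12 were under median-of-ratios scaling. PRM1, for membrane fusion, had 470 RPKM in starved and 64.0 RPKM in growing cells (2.86), and FIG2 had 173 RPKM in starved and 22.8 RPKM in growing cells (2.87). The a-specific genes, which α2 represses in these cells, were at least 2-fold higher in 7 of 7 cases, also under median-of-ratios scaling. Their median of 5.16 was the highest of the 65 lists. STE2, the receptor for α-factor, had 338 RPKM in starved and 15.3 RPKM in growing cells (4.38). Beside this, MATALPHA2, which encodes α2, had 467 RPKM in starved and 186 RPKM in growing cells (1.33), and HMRA1 was at 0. Whether cells of the other mating type were present was not tested. Of the early meiotic genes, which haploids do not need, 15 of 23 were at least 2-fold higher (median 1.23), 8 of them under median-of-ratios scaling, led by MND1 with 27.4 RPKM in starved and 3.17 RPKM in growing cells (2.77), while IME1, the master regulator, had 5.75 RPKM in starved and 5.31 RPKM in growing cells, below the limit of 10.

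Some properties that the calls did not use were compared between the classes. Coding regions with an annotated intron made up 14.1% of ORFs at least 2-fold lower, 2.85% of those higher and 5.41% of all. Without ribosomal protein genes the share among lower ORFs was 2.21%. Of the higher ORFs 4.41% lay within 20 kb of a chromosome end, of the lower ones 0.414%, and of all 2.33%. ORFs of unknown function made up 16.7% of the higher class, 5.39% of the lower and 10.5% of all.

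Side-chain nitrogen per encoded residue was lower in starved cells. Weighted by RPKM, the 5962 ORFs with a translated protein encoded 0.3444 nitrogen atoms in side chains per residue in starved and 0.3795 in growing cells. The mean encoded length was 336 residues in starved and 265 residues in growing cells, so a lower value per residue does not mean less nitrogen per transcript. Lysine made up 7.39% of encoded residues in starved and 8.60% in growing cells, and arginine 4.27% in starved and 5.23% in growing cells. Without cytosolic ribosomal proteins, which are rich in both, the values were 0.3377 in starved and 0.3425 in growing cells. The class of ORFs at least 8-fold higher, which holds no ribosomal protein, had a median of 0.3366 per residue, and that of ORFs at least 2-fold higher had 0.3591. ORFs at least 2-fold lower had 0.3852, or 0.3707 without ribosomal proteins, and all eligible ORFs had 0.3645, or 0.3626 without them.

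The deletion strain, whose 2 libraries are separate from those of wild type, gave another starvation comparison in the same background. In it 22.4% of 5863 ORFs were at least 2-fold higher in starved cells and 8.77% at least 2-fold lower. Of the 1950 ORFs higher in wild type, 1199 were also called higher in the deletion, which is 61.5% of the wild-type list and 91.5% of the deletion's. Of the 795 lower ones, 442 were called lower in both, which is 55.6% of the wild-type list and 86.0% of the deletion's. None was called in opposite directions. Over 5785 ORFs Pearson's r between the folds was 0.92 and Spearman's rho 0.93, a description across ORFs that share libraries, and the deletion's folds had an SD of 1.17 against 1.45 in wild type. Ribosomal proteins of the small subunit had a median of -2.54 in wild-type cells and -1.08 in deletion cells, and the Atg1 complex 2.65 in wild-type cells and 1.60 in deletion cells. The allantoin list had 4.92 in wild-type cells and 5.71 in deletion cells. With 1 library for each, whether these responses differ was not tested.

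The ORF whose folds differed most between the responses was DIA1, known from invasive growth, at 0.66 in wild type and 3.61 in deletion cells, with 53.0 RPKM in growing wild type and 6.41 RPKM in growing deletion cells. Larger in wild type were the folds of HOP2, at 2.35 in wild type and -0.59 in deletion cells, FMP23, at 4.12 in wild type and 1.58 in deletion cells, and AGA2, at 5.70 in wild type and 3.23 in deletion cells. FMP16 had 7.04 in wild type and 4.74 in deletion cells, ARG3 had 6.03 in wild type and 3.73 in deletion cells, and SNO1 had 5.50 in wild type and 3.23 in deletion cells. Lower in wild type than in the deletion were the folds of PTR2, at -4.29 in wild type and -1.57 in deletion cells, RPS26B, at -3.33 in wild type and -1.02 in deletion cells, and RPL9A, at -3.90 in wild type and -1.84 in deletion cells. So were those of the mating genes AGA1, at 1.99 in wild type and 4.66 in deletion cells, and FUS1, at 2.03 in wild type and 4.29 in deletion cells. Both started from low levels in growing deletion cells: AGA1 had 3.82 RPKM there and 317 RPKM in growing wild type, and FUS1 2.38 RPKM and 96.1 RPKM. In starved cells both were higher in wild type, AGA1 with 1264 RPKM against 120 RPKM in the deletion, and FUS1 with 395 RPKM against 65.2 RPKM.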

How the data were processed

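Total RNA of 4 libraries, 1 for each genotype and condition, was sequenced. Reads were handled with CASAVA 1.8.2 and Bowtie2 2.1.0 on build sacCer3, per the submitters' processing notes. Not given in the sources used here were the counting tool, its annotation, its use of strand and its treatment of reads with several matches. The authors deposited 1 table of RPKM values per ORF, used as deposited. The differences given here are log2((RPKM + 1)/(RPKM + 1)), called at 2-fold, for ORFs at 10 RPKM or more in either wild-type library. With 1 library a group no test across cultures exists, so no p-value is given. Folds of low ORFs are understated by the pseudocount, and the functions were tested on simulated data.

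Names, chromosomes, strands, introns, translations and duplicate pairs come from RefSeq R64, the same assembly as sacCer3, in which 5997 of 6678 ORFs matched. List counts and medians cover all measured members of 65 gene lists, also those under 10 RPKM. Promoter windows, from 400 to 101 bases before the start codon on R64, were cut for 5967 ORFs and searched for 14 motifs on both strands. Members and lists were chosen with earlier results of these data known. Genes named are the 25 highest and 25 lowest folds, the 15 highest levels of each library, all members of lists of up to 15 and the 10 largest folds of longer ones, the 3 ORFs on either side of the limit and the 10 largest differences from the deletion in each direction, with others only to complete a count or chosen after their values were seen. Alternatives were other pseudocounts, limits, scalings and ORF sets. Python 3.11.15, numpy 2.4.6, pandas 2.3.3, scipy 1.17.1 and matplotlib 3.10.9 were used.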

Additional observations from a re-analysis of the deposited data

Results flagged for a closer look

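Some named ORFs were at least 2-fold different in starved wild type and had the opposite sign in the deletion, and that difference was not tested, since each fold rests on 1 library a side. TOD6, a repressor of ribosome assembly genes, had a log2 fold of -1.26 in wild-type cells and 0.20 in deletion cells. GRX3, a glutaredoxin gene, had 1.64 in wild-type cells and -0.27 in deletion cells. FIT2 and FIT3, cell wall proteins of iron uptake, had 1.59 and 1.59 in wild-type cells and -0.41 and -0.37 in deletion cells. PCL2, a cyclin gene, had 1.04 in wild-type cells and -0.68 in deletion cells. HOP2, of meiotic recombination, had 2.35 in wild-type cells and -0.59 in deletion cells. YGR164W, not in the RefSeq table, had 2.43 in wild-type cells and -0.07 in deletion cells. Over all called ORFs, 20 of the higher and 4 of the lower ones had the opposite sign in the deletion.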

How the results depend on the processing

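The numbers of ORFs called in wild type, 1950 higher and 795 lower, stayed within 1.5 times under a pseudocount of 0.1 or 5, no RPKM limit, a limit of 30 RPKM, upper-quartile scaling, scaling to equal sums, and with only RefSeq ORFs. Scaling by the median of ratios gave 1156 higher and 1246 lower. ORFs called higher in both wild type and the deletion numbered 1199 as deposited and 747 under the median of ratios. Those called lower in both numbered 442 as deposited, 854 under the median of ratios, 670 under upper-quartile scaling and 286 under equal sums. Of 699 named ORFs, 84 lost and 34 gained a call under the median of ratios, and 42 that were not called changed sign by 0.1 or more. Under upper-quartile scaling 46 lost and 18 gained a call and 23 changed sign in this way, and under equal sums 26 lost and 58 gained a call and 15 changed sign. A pseudocount of 5 took the call from 31. Of 49 list medians above 0, 9 fell below 0 under the median of ratios, namely cell wall, fermentation, phospholipid, phosphate, zinc, proton pump, reference gene, ribosome regulator and Rpd3 lists. The difference in encoded side-chain nitrogen per residue, starved minus growing, was -0.0351 over all proteins, -0.0317 with RPKM weights limited at the 99th percentile and -0.0048 without ribosomal proteins. No paired analysis was possible because each group holds 1 library. Depth is known only approximately, and low values, such as the 1.88 RPKM of DAL80 in growing cells, make the largest folds imprecise.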

Other observations

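Genes of vitamins, metals and phosphate are not described above, and their lists were not alike. SNZ1 and SNO1, of vitamin B6 synthesis, had log2 folds of 6.58 and 5.50, SNZ1 with 1545 RPKM in starved and 15.2 RPKM in growing cells. BIO3, of biotin synthesis, had 73.3 RPKM in starved and 5.68 RPKM in growing cells (3.48), and THI4, of thiamine synthesis, had 15.2 RPKM in starved and 1.21 RPKM in growing cells (2.88). The near-identical copies THI5, THI11, THI12 and THI13 were all under 10 RPKM. Of 25 ORFs of the iron regulon 16 were at least 2-fold higher and 1, FRE1, a reductase of iron and copper, lower, with 21.5 RPKM in starved and 87.8 RPKM in growing cells (-1.98), but under median-of-ratios scaling 9 of the 25 were higher, against 19.4% of all ORFs. The metallothionein copy CUP1-1 had 5775 RPKM in starved and 458 RPKM in growing cells (3.65), and its copy CUP1-2 had 8412 RPKM in starved and 618 RPKM in growing cells (3.76), values that depend on how reads of identical copies were shared out. Of 23 ORFs of the phosphate regulon 7 were at least 2-fold higher and 2 lower, with a median of 0.39, and the 2 lower ones were the transporters PHO84 (-2.15) and PHO89 (-2.03). Of 10 ORFs of the zinc regulon 2 were higher and 1, the transporter ZRT1 (-2.15), lower. In both the phosphate and the zinc list these shares were below those of all ORFs, 32.7% higher and 13.3% lower. Under median-of-ratios scaling 2 of the phosphate list were higher and 4 lower, and none of the zinc list higher and 3 lower. Of all ORFs 19.4% were higher and 20.9% lower under that scaling.

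Of 12 genes often used as references 2 were at least 2-fold higher and 1 lower, against 32.7% and 13.3% of all ORFs. ACT1, actin, had 2058 RPKM in starved and 1011 RPKM in growing cells (1.03), and PDA1 had 657 RPKM in starved and 281 RPKM in growing cells (1.22), but under median-of-ratios scaling none of the 12 was at least 2-fold higher and 2 were lower. ALG9 had 70.7 RPKM in starved and 66.9 RPKM in growing cells (0.08), and IPP1 had 969 RPKM in starved and 891 RPKM in growing cells (0.12). FBA1 was at least 2-fold lower (-1.50).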
